A study of Mus musculus with 8 samples.

Results

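The 10 genes described here encode proteins that coat lipid droplets or control the lipolysis of their triglyceride: G0s2, Plin2, Plin4, Plin5, Cidea, Cideb, Cidec, Pnpla2, Abhd5 and Lipe. They were chosen by gene symbol from the 21899 genes of the deposited liver expression table, and the choice was made with the genotype differences of these libraries known. Their read counts between genotypes are therefore given as a description. The number of them past the threshold of the fit across all genes is part of that description and supports nothing. All 10 had enough reads to enter the fit across 11380 genes.

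The study profiled liver polyA RNA of mice given concanavalin A (ConA), a lectin from jack bean used to provoke T cell driven acute hepatitis, with every liver taken 8 h later. The 4 deficient libraries are labelled as P2X4R knockdown, whereas the series text names P2X4R-/- mice. The 4 wild-type libraries received the same ConA treatment, and no untreated liver was analysed here. P2X4R is the ATP-gated ion channel encoded by P2rx4. The labels give neither strain, sex nor age of the mice, nor whether the deficiency is whole-body, and do not state that the libraries are of different mice. The p-values then reflect no more than the spread among the 8 libraries, part of which may be technical.

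Lipid droplets store triglyceride and cholesteryl ester in a core surrounded by a phospholipid monolayer. Perilipins (Plin genes) coat this surface and limit or direct the access of lipases, and the CIDE proteins promote the transfer of lipid between droplets or onto lipoproteins. Adipose triglyceride lipase (ATGL, gene Pnpla2) takes the first fatty acid from triglyceride. Its co-activator is CGI-58 (gene Abhd5) and its inhibitor is the G0/G1 switch protein G0S2, while hormone-sensitive lipase (gene Lipe) acts on the diglyceride that results. In liver, fasting and fatty acids acting through the nuclear receptor PPAR alpha raise several of these genes.

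Totals ranged from 15445285 to 16604190 reads per library, so that 3 reads correspond to 0.181 to 0.194 CPM (reads scaled to a common library total). P2rx4 had 286, 401, 467 and 516 reads in the deficient libraries and 692, 888, 906 and 898 in the wild-type ones, or 24.7 ± 5.33 against 55.9 ± 8.31 CPM (SD, n = 4 each), with a log2 fold change of -1.18 (SE 0.19; edgeR quasi-likelihood test, adjusted p = 0.0048). Reads of P2rx4 were thus lower but present in every deficient library, and whether the counted exons include a deleted part is not stated. The deficient library 1 and the wild-type library 1 held 10.5% and 10.1% reads of mitochondrial genes, against 3.81% to 6.66% in the other 6. Summed hepatocyte markers reached 67851 to 93061 CPM in deficient and 100674 to 113138 CPM in wild-type livers, without overlap, and 1 of the 7, Cps1, passed the test and fell. Most of the sum was Alb, with 67888 ± 9724 against 88866 ± 5307 CPM (edgeR adjusted p = 0.0884). In CPM, Alb, Ttr, Serpina1a and Cps1 were lower without overlap, while Apoa1, Hnf4a and Asgr1 overlapped between genotypes. In the deposited FPKM, which carry no composition scaling, Alb and Cps1 still did not overlap. Ttr (2521 to 3020 in deficient, 2925 to 4496 in wild-type) and Serpina1a (547 to 598, 594 to 729) did. Across all genes 2264 (19.9%) passed an adjusted p of 0.05, 1055 of them higher and 1209 lower, and scaling by library size alone gave 1731 higher and 843 lower, with 1602 higher and 813 lower for limma on log2(FPKM + 1). Fewer cells of a type and less RNA per cell cannot be told apart in such bulk libraries.

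The RefSeq promoter windows of G0s2, Plin2 and Plin4 are shown because these 3 members differed most between genotypes on the log2 scale. Of the 3 windows, only that of Plin2 held any of the motifs searched for. Each window runs from 250 bases before to 50 bases after the annotated start in GRCm38.p6, on the minus strand. They lie at chr1:193273139-193273438 for G0s2, chr4:86670010-86670309 for Plin2 and chr17:56109733-56110032 for Plin4. Capitals mark motif matches or, where no match covers it, the first base of the gene.
G0s2: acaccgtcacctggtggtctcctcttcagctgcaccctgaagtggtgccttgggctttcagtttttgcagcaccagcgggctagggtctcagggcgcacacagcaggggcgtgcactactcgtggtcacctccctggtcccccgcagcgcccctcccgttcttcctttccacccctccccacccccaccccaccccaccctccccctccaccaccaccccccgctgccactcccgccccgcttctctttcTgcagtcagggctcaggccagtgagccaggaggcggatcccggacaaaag
Plin2: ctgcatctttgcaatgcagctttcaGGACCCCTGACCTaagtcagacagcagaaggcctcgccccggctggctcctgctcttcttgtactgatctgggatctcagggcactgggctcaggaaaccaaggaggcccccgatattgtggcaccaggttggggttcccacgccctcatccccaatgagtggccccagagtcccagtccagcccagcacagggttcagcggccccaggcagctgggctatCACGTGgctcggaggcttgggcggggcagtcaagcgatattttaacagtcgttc
Plin4: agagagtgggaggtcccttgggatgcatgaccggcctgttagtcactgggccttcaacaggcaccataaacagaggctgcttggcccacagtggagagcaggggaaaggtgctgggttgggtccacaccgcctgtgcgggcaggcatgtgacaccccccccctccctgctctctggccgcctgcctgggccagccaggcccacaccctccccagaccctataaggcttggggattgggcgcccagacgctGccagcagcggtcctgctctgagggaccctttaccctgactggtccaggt
The Plin2 window held a PPAR response element, a direct repeat of AGGTCA with 1 base between the copies, at bases 26 to 38 with 2 mismatches, 225 bases before the start. It also held the E-box CACGTG across its start, at bases 247 to 252. Neither element was found in the G0s2 or Plin4 window, nor was the cAMP response element core TGACGTCA or the STAT palindrome TTCNNNGAA, with both strands searched. Among all 32851 RefSeq windows, 3.86% held the PPAR element with at most 2 mismatches, 7.15% the E-box, 1.79% the cAMP core and 8.3% the STAT palindrome. Of the 10 members, 9 had at least 1 window, and outside Plin2 the only matches were an E-box and a STAT palindrome in one window of Lipe. A match is a description of these letters and no match says only that they are missing from this window.

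Transcript levels of the 10 genes were compared with each other per length, as fragments per kilobase and per number of counted reads (FPKM). Plin2, the perilipin that coats most hepatocyte droplets, had the highest FPKM in all 8 libraries. It had 369 ± 127 in deficient and 165 ± 64.3 in wild-type libraries (SD, n = 4 libraries each). Pnpla2 came second in 7 of 8 libraries, at 56.7 ± 2.89 and 65.8 ± 9.51 FPKM. G0s2 stood at rank 2, 4, 3 and 3 in the deficient libraries and at rank 6, 5, 7 and 5 in the wild-type ones, with 56.5 ± 68.1 and 3.21 ± 1.10 FPKM. Below these, in mean FPKM over all 8 libraries, followed Cidec (19.96) and Plin5 (10.96), then Plin4 (3.34), Cideb (3.29) and Abhd5 (2.86), whose group means lay within 1 SD of a neighbour in at least one genotype. Cidea (1.02) and Lipe (0.716) were lowest and exchanged the last ranks between libraries, except in wild-type library 2, where Plin4 was at rank 9. Plin1, the perilipin of adipocyte droplets, had 0 reads in the deficient libraries and at most 1 in any wild-type one.

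**Figure D1:**
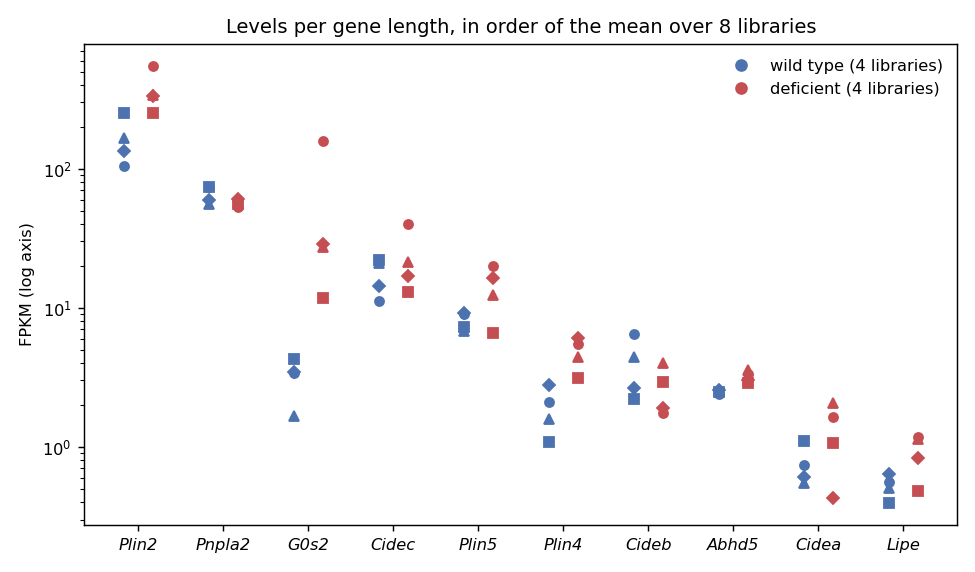
FPKM of the 10 genes in each library (log axis), deficient and wild type in separate colours. Plin2 is the highest gene in all 8 libraries, and G0s2 moves from 1.68 to 4.29 FPKM in wild-type livers to 11.8 to 158 FPKM in deficient ones.

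G0s2, the ATGL inhibitor, differed most. Scaled by library size and composition (TMM), it reached 128, 10.2, 22.2 and 24.1 CPM in deficient libraries 1 to 4 and 2.97, 4.08, 1.58 and 3.14 CPM in wild-type libraries 1 to 4. Every deficient library lay above every wild-type one, and deficient library 1 lay far above the other 3. The means were 46.2 ± 55.1 and 2.94 ± 1.03 CPM, 15.7 times apart, with a log2 fold change of 3.97 (SE 0.71). Without deficient library 1, which also had the highest mitochondrial share, the log2 fold change was 2.68, and without both libraries above 10% mitochondrial reads it was 2.67. The wild-type values rest on 24 to 58 reads per library and the deficient ones on 164 to 2126. The table lists G0s2 (ENSMUSG00000009633) at chr1:192954469-192955525 on the minus strand, wholly inside the opposite-strand gene Lamb3, which had 50 to 80 reads in deficient and 21 to 47 in wild-type libraries. Whether counting used strand is not stated, so reads of this overlap cannot be assigned with certainty.

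Plin2 (ENSMUSG00000028494, chr4:86566623-86588297, minus strand) had 1798, 878, 1105 and 1123 CPM in the deficient libraries. In wild-type livers it had 367, 972, 636 and 493 CPM. The groups overlapped, because wild-type library 2 lay above deficient library 2, while the means of 1226 ± 397 and 617 ± 261 CPM were 0.99 apart on the log2 scale (SE 0.30). This difference was 0.55 without both libraries above 10% mitochondrial reads.

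Plin4 (ENSMUSG00000002831, chr17:56407591-56416803, minus strand), a long perilipin with many repeats of an amphipathic helix, was, of the 3 perilipins among the 10 genes, the one whose genotypes did not overlap. It had 32.6, 19.8, 26.2 and 36.8 CPM in deficient libraries and 13.3, 7.45, 10.9 and 18.3 CPM in wild-type ones. The means of 28.8 ± 7.46 and 12.5 ± 4.54 CPM gave a log2 fold change of 1.21 (SE 0.27). The table lets Plin4 overlap its neighbour Hdgfl2 by 17 bases. The lowest deficient library, 2, lay just above the highest wild-type library, 4.

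Plin5 (ENSMUSG00000011305, chr17:56418601-56424596, minus strand), which links droplets to mitochondria in oxidative tissues, is listed 1797 bases from Plin4. It had 39.0, 13.6, 23.9 and 32.9 CPM in deficient livers and 18.7, 16.6, 15.4 and 19.7 CPM in wild-type ones. Deficient library 2 was the lowest of all 8, and the other deficient libraries were above every wild-type one. The log2 fold change was 0.64 (SE 0.27), and the SD was 11.1 CPM in deficient but 1.99 CPM in wild-type livers. The FPKM of Plin5 was 3.64, 2.10, 2.78 and 2.72 times that of Plin4 in deficient libraries and 4.29, 6.77, 4.30 and 3.29 times in wild-type ones, so the ratio overlapped between genotypes.

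**Figure D2:**
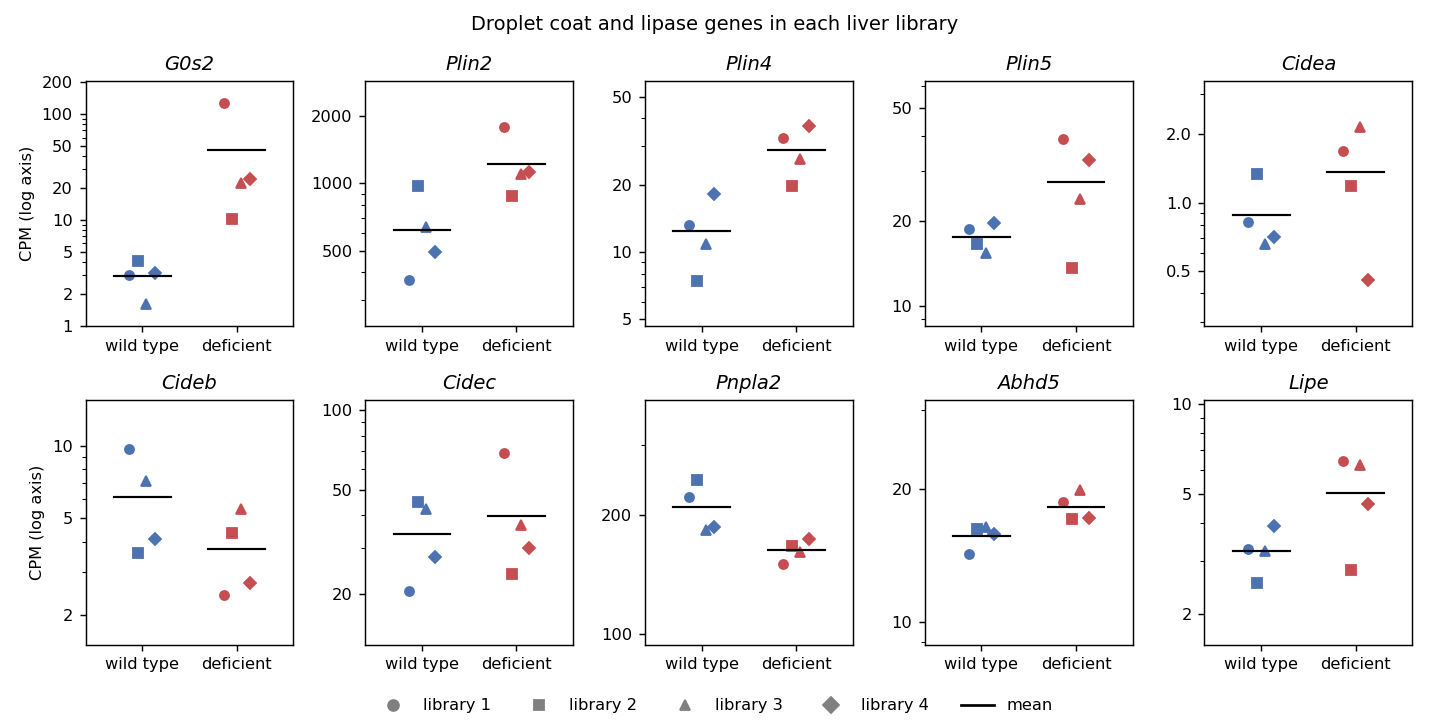
CPM of each of the 10 genes by library on a log axis, with 1 panel per gene, points for libraries and bars for group means. G0s2, Plin4 and Abhd5 are higher and Pnpla2 is lower in all deficient than in all wild-type libraries, and the other 6 genes overlap.

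The CIDE genes did not share a direction. Cidec (ENSMUSG00000030278, chr6:113401595-113412721, minus strand), whose protein fuses droplets into larger ones, had 68.7, 23.9, 36.6 and 30.0 CPM in deficient and 20.6, 45.0, 42.3 and 27.8 CPM in wild-type livers. The groups overlapped widely, and the log2 fold change of 0.23 (SE 0.33) turned to -0.17 without deficient library 1. Cideb (ENSMUSG00000022219, chr14:55991507-55995915, minus strand), which acts in the lipidation of very low density lipoproteins, had 2.41, 4.35, 5.50 and 2.70 CPM in deficient and 9.68, 3.59, 7.12 and 4.10 CPM in wild-type libraries. Its log2 fold change was -0.71 (SE 0.36), and the groups overlapped. Cideb shares 1451 listed bases with the opposite-strand gene Nop9, whose means were 14.7 and 13.7 CPM, so part of its reads is uncertain. Cidea (ENSMUSG00000024526, chr18:67476674-67500855, plus strand), which appears in steatotic liver and brown fat, was near the lower limit of these libraries, with 8 to 37 reads in deficient and 10 to 19 in wild-type livers. Its means of 1.37 ± 0.721 and 0.881 ± 0.311 CPM overlapped.

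The lipase genes moved less than the inhibitor. Pnpla2 (ENSMUSG00000025509, chr7:141035111-141040656, plus strand) had 150, 166, 161 and 174 CPM in deficient livers and 222, 245, 183 and 187 CPM in wild-type ones. All 4 deficient libraries lay below all 4 wild-type ones, with means of 163 ± 9.74 and 209 ± 29.7 CPM and a log2 fold change of -0.36 (SE 0.15). With counts scaled by library size alone, a setting that placed the median of all genes at 0.14 instead of -0.001 on the log2 scale, the difference was -0.22. The FPKM of Pnpla2, which carries no composition scaling, ran from 53.4 to 60.2 in deficient and from 55.9 to 74.3 in wild-type livers and so overlapped. Abhd5 (ENSMUSG00000032540, chr9:122180673-122210589, plus strand) had 18.6, 17.1, 19.8 and 17.2 CPM in deficient and 14.2, 16.2, 16.4 and 15.8 CPM in wild-type livers. These groups did not overlap either, with deficient livers higher by 0.22 on the log2 scale (SE 0.14) and the nearest libraries at 17.1 and 16.4 CPM. Lipe (ENSMUSG00000003123, chr7:25078952-25098135, minus strand) had 6.46, 2.80, 6.25 and 4.65 CPM in deficient and 3.29, 2.53, 3.23 and 3.91 CPM in wild-type livers, which overlapped, with a log2 fold change of 0.63 (SE 0.29).

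By count, 8 of the 10 genes had the higher mean in deficient livers and 2, Cideb and Pnpla2, the lower one. The groups did not overlap for 4 of the 10, where this was so for 24.9% of all genes tested. At an adjusted p under 0.05 in the edgeR fit across all genes, 3 of the 10, G0s2, Plin2 and Plin4, were past the threshold and higher, beside 9.27% of all genes. None was past it and lower, beside 10.6% of all genes. At an unadjusted p under 0.05 in the edgeR fit there were 4 higher and 1 lower, with no share over all genes computed. DESeq2, at an adjusted p under 0.05, called 3 higher and 0 lower, beside 1306 higher and 1559 lower of 16145 genes. Because the genes were chosen with this contrast known, these counts carry no weight. The median log2 fold change of the 10 was 0.63, against -0.001 for all genes. Leaving out 1 library changed the count of 3 to 2 (without deficient 1, 3 or 4, or wild-type 1, 3 or 4, when Plin2 was no longer past the threshold) or to 5 (without deficient 2, when Plin5 and Lipe were added), while G0s2 and Plin4 were past it in every fit.

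The proportions of inhibitor, lipase and co-activator were set beside each other within each library. The FPKM of G0s2 was 2.96, 0.212, 0.476 and 0.481 times that of Pnpla2 in the deficient libraries and 0.0464, 0.0578, 0.0300 and 0.0583 times in the wild-type ones. Only in deficient library 1 was the inhibitor transcript above the lipase transcript, and the groups did not overlap. The FPKM of Pnpla2 was 15.9, 19.2, 16.0 and 19.9 times that of Abhd5 in deficient livers and 30.8, 29.8, 21.9 and 23.3 times in wild-type ones, again without overlap. The summed FPKM of the 10 genes was 834, 349, 472 and 470 in deficient and 214, 369, 262 and 231 in wild-type libraries, overlapping at deficient 2 and wild-type 2. Plin2 alone made up 65.9% to 72.1% of this sum in deficient livers and 48.9% to 68.7% in wild-type livers. These ratios are of transcripts and say nothing of protein.

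**Figure D3:**
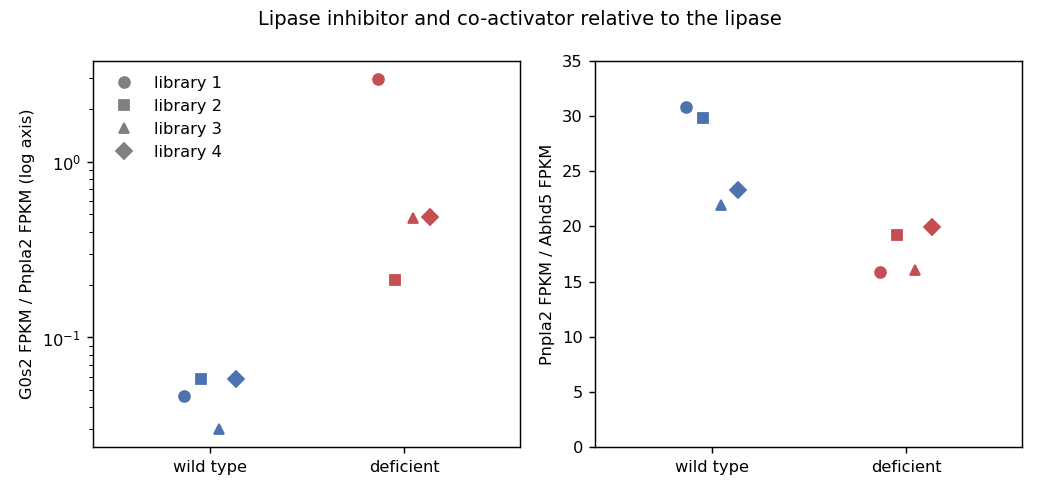
Ratio of G0s2 to Pnpla2 FPKM (left, log axis) and of Pnpla2 to Abhd5 FPKM (right) in each of the 4 deficient and 4 wild-type libraries. The left ratio runs from 0.0300 to 0.0583 in wild-type and from 0.212 to 2.96 in deficient livers, and the right ratio is 15.9 to 19.9 in deficient and 21.9 to 30.8 in wild-type livers.

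Within a genotype the genes varied together in part. Deviations of log2 CPM from the group mean are described over the 8 libraries, which share libraries and depth, so that no p is given. Plin2 and Cidec deviated alike (r = 0.92, and 0.91 without deficient library 1), as they did in the 4 deficient (r = 0.98) and in the 4 wild-type libraries (r = 0.93). G0s2 and Plin5 had r = 0.82, Plin5 and Lipe 0.78, and Plin4 had r = 0.68 with both Plin5 and Lipe. Plin2 and Plin4 had r = -0.29 over all 8, which joined opposite signs, 0.64 in the deficient and -0.80 in the wild-type libraries. Plin2 and Cideb ran opposite over all 8 (r = -0.69), and with -0.67 and -0.71 within the genotypes. G0s2 and Plin2 had r = 0.61, which was 0.39 without deficient library 1. Within the genotypes this r was 0.9999 in the 4 deficient and 0.20 in the 4 wild-type libraries. For G0s2 and Plin5 it was 0.85 and 0.52. Deficient library 2 was the lowest deficient library for G0s2, Plin2, Plin4, Plin5, Cidec, Abhd5 and Lipe, and deficient library 1 the highest for G0s2, Plin2, Plin5, Cidec and Lipe.

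**Figure D4:**
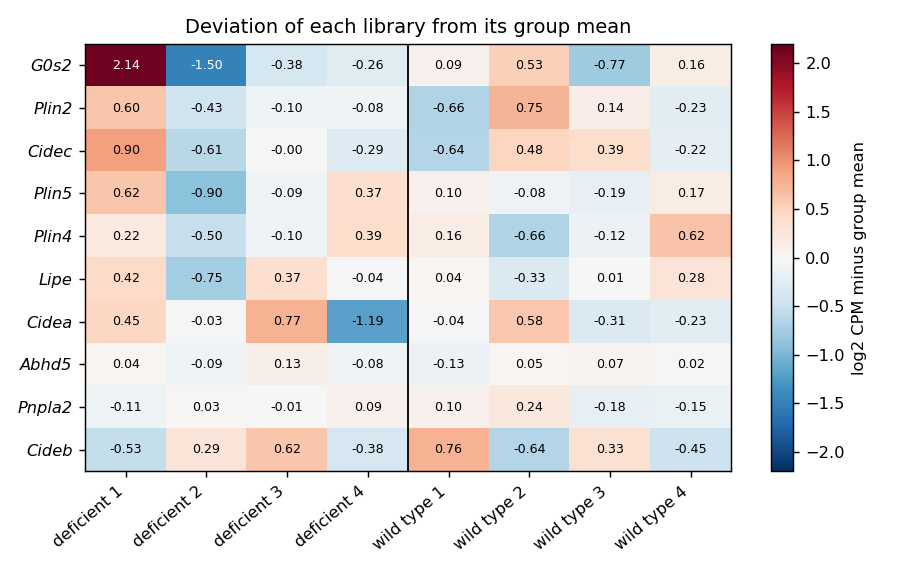
Deviation of each library's log2 CPM from the mean of its genotype for the 10 genes (colour and printed value). Deficient library 1 is at 2.14 and deficient library 2 at -1.50 for G0s2, while Pnpla2 and Abhd5 stay near 0 in every library.

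Of the 6414 tested genes with a mean of at least 10 CPM, those with deviations most like those of G0s2 were Fis1 (r = 0.98), Adipor2 (0.98), Rpl18 (0.97), Nudcd2 (0.97) and Eif1ad (0.96). Of the 6414, 45 genes had an r of 0.9 or more and 170 of -0.9 or less. The deviations of G0s2 were largest in deficient libraries 1 and 2 (2.14 and -1.50), against -0.77 to 0.53 in the other libraries. These r values thus rest largely on those libraries, and r without deficient library 1 was not computed for these genes. For Plin2 the 5 most alike were Nceh1 (r = 0.998), Pbxip1 (0.99), St3gal5 (0.98), Exosc1 (0.97) and Mrpl9 (0.96), with 31 genes at 0.9 or more and 25 at -0.9 or less. Nceh1 encodes a neutral cholesterol ester hydrolase. No p was computed for these values, which rest on 8 libraries.

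Other genes of the same pathway were read from lists of named genes, with p-values adjusted over all 11380 genes in the edgeR fit, where 9.27% of all genes rose and 10.6% fell. The lists were not tested as sets, and the list medians within 0.1 of 0 changed sign with library size scaling. The sum of hepatocyte markers given above, mostly Alb, was lower in every deficient library too. The part of these markers in the falls below was not tested. Among 18 further droplet proteins, 15 could be tested, 2 rose and 4 fell, with a median log2 fold change of -0.08. Plin3, the remaining widely expressed perilipin, rose from 34.6 ± 4.06 to 57.3 ± 12.1 CPM (log2 fold change 0.73, SE 0.18, adjusted p = 0.0184). Tmem159, which encodes the seipin partner LDAF1, rose from 1.31 ± 0.303 to 2.67 ± 0.735 CPM (adjusted p = 0.0449). Mettl7b fell from 191 ± 41.8 to 104 ± 18.9 CPM (adjusted p = 0.0126), and the droplet dehydrogenase gene Hsd17b11 from 75.5 ± 21.1 to 43.9 ± 3.66 CPM (adjusted p = 0.0193). The seipin gene Bscl2 and the acyl-CoA synthetase gene Acsl4 also fell (adjusted p = 0.0293 and 0.0209). Hilpda, a second ATGL inhibitor, had a log2 fold change of -0.94 and an adjusted p of 0.068. The rises numbered 0 without deficient 3, 1 without deficient 1 or 4 or wild-type 1, 3 or 4, and 4 without deficient 2, and the falls 2 without deficient 3 and 1 without wild-type 3. The call of Plin3 was lost without deficient 3 (adjusted p = 0.0517), that of Hsd17b11 without wild-type 3 (0.064), that of Acsl4 without deficient 3 or wild-type 3 (0.0601 and 0.0709), that of Bscl2 without any of 5 libraries (0.0529 to 0.0969) and that of Tmem159 without any of 6 (0.0638 to 0.127), while Hilpda passed without deficient 2 (0.00563).

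Triglyceride synthesis genes fell in 5 of 17 tested cases and rose in 1, with a median log2 fold change of -0.01. Gpd1, which makes glycerol 3-phosphate, fell from 70.2 ± 20.3 to 26.3 ± 7.59 CPM (log2 fold change -1.42, SE 0.25, adjusted p = 0.00604). The fatty acid activating enzyme gene Acsl1 fell from 212 ± 104 to 74.6 ± 16.2 CPM (-1.50, SE 0.29, adjusted p = 0.00839), and Acsl5 from 139 ± 4.21 to 85.4 ± 18.2 CPM (adjusted p = 0.0168). Glycerol kinase Gk fell from 138 ± 31.5 to 69.9 ± 17.4 CPM (adjusted p = 0.0119), and Soat2, which esterifies cholesterol, also fell (adjusted p = 0.0212). Agpat2, the acyltransferase that makes phosphatidic acid, rose from 36.4 ± 1.61 to 61.0 ± 15.8 CPM (adjusted p = 0.0201). Its call was lost without deficient 3 (adjusted p = 0.0549) or wild-type 3 (0.0626), and that of Soat2 without deficient 3 (0.0606). Dgat2, which adds the last fatty acid, had 378 ± 169 and 440 ± 66.1 CPM (adjusted p = 0.594).

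Among the other neutral lipid hydrolases, 6 of 22 fell and 1 rose, with a median log2 fold change of -0.46. The lysosomal acid lipase gene Lipa fell from 63.6 ± 7.94 to 29.5 ± 7.88 CPM (-1.11, SE 0.20, adjusted p = 0.00647). The carboxylesterase gene Ces1d, whose product hydrolyses triglyceride in mouse liver, fell from 377 ± 41.03 to 180 ± 66.7 CPM (adjusted p = 0.0128). Ces1g, Ces1c and Ces1f also fell (adjusted p = 0.0158, 0.0209 and 0.042), although near-identical Ces1 copies can exchange reads, and Aadac fell from 350 ± 23.1 to 223 ± 45.7 CPM (adjusted p = 0.0235). Pnpla6 rose from 6.99 ± 2.08 to 13.0 ± 2.98 CPM (adjusted p = 0.0274). Mgll, which splits monoglyceride, had a log2 fold change of -0.92 and an adjusted p of 0.0505. The falls numbered 3 without deficient 3 and 2 without wild-type 3, and the rise of Pnpla6 was lost in each fit that dropped deficient 1, deficient 3, deficient 4, wild-type 2 or wild-type 3, where its adjusted p ran from 0.0518 to 0.0837. The calls of Aadac (0.0521 to 0.0718) and Ces1c (0.0544 to 0.0636) were each lost without any of 3 libraries, that of Ces1f without any of 5 (0.0627 to 0.128) and that of Ces1g without wild-type 3 (0.0508), whereas Mgll passed without deficient 1 (0.013) or wild-type 4 (0.0425).

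Signalling genes that control lipolysis changed in 7 of 21 tested cases, 2 upward and 5 downward, with a median log2 fold change of -0.24. The glucagon receptor gene Gcgr had 30.2, 59.4, 58.6 and 58.5 CPM in deficient and 127, 100, 131 and 105 CPM in wild-type livers. All deficient libraries lay below all wild-type ones (-1.17, SE 0.22, adjusted p = 0.00724). The cAMP phosphodiesterase gene Pde4b fell from 643 ± 120 to 187 ± 118 CPM (adjusted p = 0.0124). Prkaca, the catalytic subunit of protein kinase A, rose from 8.17 ± 2.51 to 19.2 ± 2.86 CPM (1.23, SE 0.22, adjusted p = 0.00662). Of the AMP-activated kinase genes, Prkaa1 rose (adjusted p = 0.036) and Prkaa2 fell (adjusted p = 0.0337), and the insulin receptor substrate gene Irs2 fell (adjusted p = 0.0468). Each of these 3 was lost when most single libraries were left out, with adjusted p up to 0.105, 0.107 and 0.115. The falls numbered 3 without deficient 1, 3 or 4 or wild-type 3 or 4, and the rises 1 without any one deficient library or without wild-type 1 or 3.

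Of 18 transcription factors known to act on droplet and lipid genes, 2 fell and none rose in the edgeR fit, with a median log2 fold change of -0.03. At an unadjusted p under 0.05 there were 2 higher and 3 lower, with no share over all genes computed. DESeq2 called 1 higher, beside 1306 of 16145 genes. Mlxipl, the glucose-responsive factor ChREBP, fell from 145 ± 58.6 to 53.6 ± 13.0 CPM (-1.43, SE 0.26, adjusted p = 0.00702), and Srebf1 from 129 ± 27.1 to 64.4 ± 11.9 CPM (-1.001, SE 0.19, adjusted p = 0.00816). Ppara had 64.9 ± 7.87 and 65.2 ± 5.31 CPM (log2 fold change -0.01, adjusted p = 0.979). Rxrb and Ppargc1a had log2 fold changes of 0.41 and 0.54 (adjusted p = 0.0618 and 0.0705). The count of rises was 2 without wild-type 1, these being Ppargc1a (adjusted p = 0.0401) and Cebpb (1.1e-05).

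Droplet genes such as Plin2 are themselves PPAR alpha targets, so 27 further targets were read. None rose and 9 fell, with a median log2 fold change of -0.56. At an unadjusted p under 0.05 there were 0 higher and 14 lower, with no share over all genes computed. DESeq2 called 0 higher and 10 lower, beside 1306 higher and 1559 lower of 16145 genes. The peroxisomal enzyme gene Ehhadh fell from 199 ± 33.7 to 98.1 ± 8.15 CPM (-1.02, SE 0.16, adjusted p = 0.00479). Cpt1a, which brings fatty acids into mitochondria, fell from 249 ± 51.8 to 143 ± 8.14 CPM (-0.80, SE 0.17, adjusted p = 0.0111). The peroxisomal thiolase gene Acaa1b fell from 310 ± 101 to 133 ± 41.5 CPM (adjusted p = 0.0115), and the acyl-CoA thioesterase gene Acot3 from 7.497 ± 1.08 to 2.55 ± 0.924 CPM (adjusted p = 0.00686). The fatty acid transporter gene Slc27a2 fell as well (adjusted p = 0.0116). The 9 falls became 6 without wild-type 3. Plin2, Plin4 and G0s2, given above, were higher in the same deficient livers.

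**Figure D5:**
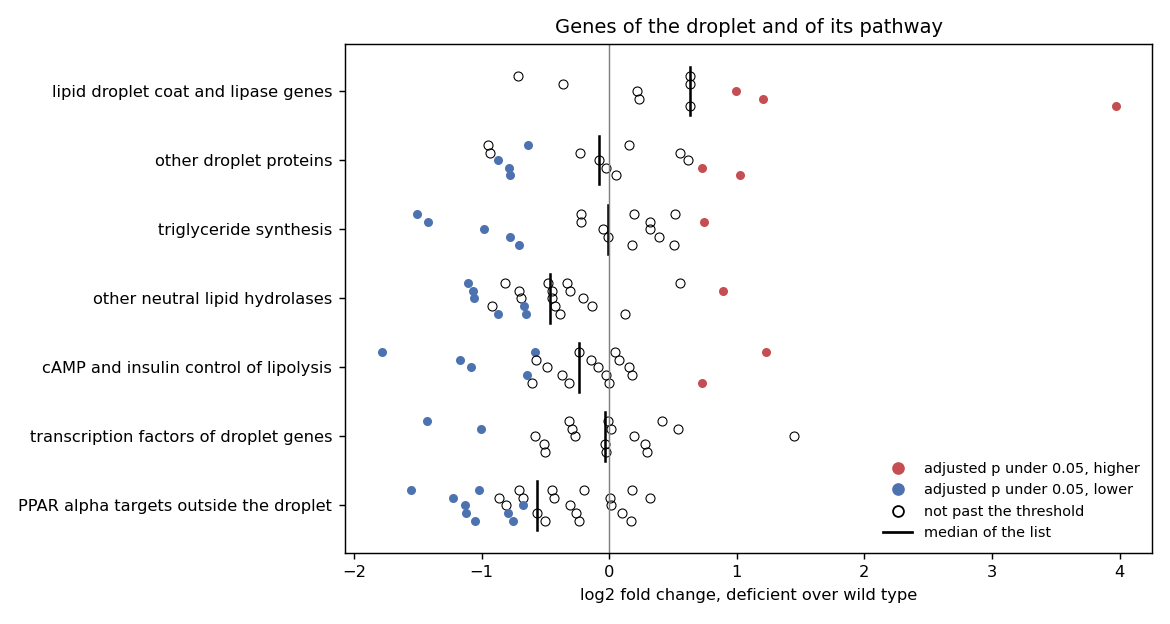
Log2 fold change (deficient minus wild type) of each tested gene in the 6 lists and of the 10 droplet genes, with genes past the adjusted threshold in colour and a bar at each list's median. The medians are -0.08, -0.01, -0.46, -0.24, -0.03 and -0.56 for the lists and 0.63 for the 10 genes.

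Markers of other cell types were summed in each library. Counts of markers that rose or fell stand beside 9.27% and 10.6% of all genes, and the marker lists were not tested as sets. Adipocyte markers summed to 1182 to 1836 CPM in deficient and 1049 to 1302 CPM in wild-type livers, mostly from Pck1, which hepatocytes also express. The defining adipocyte genes Adipoq and Plin1 had at most 2 reads in any library, and 0 of the 2 testable markers passed. Cfd had 27 reads in deficient library 1, 14 in wild-type library 3, 1 in wild-type library 4 and 0 in the others. Retn had 5 reads in deficient library 1, 4 in wild-type library 3 and 0 in the others. Neutrophil markers summed to 98.4, 91.6, 98.0 and 177 CPM in deficient and 101, 81.5, 32.8 and 27.2 CPM in wild-type livers, which overlapped, and 2 of 8 tested rose. Stellate cell markers summed to 93.5 to 151 CPM against 149 to 236 CPM and Kupffer cell markers to 30.3 to 42.7 CPM against 38.2 to 126 CPM, and 3 of 7 fell in each list. Cholangiocyte markers summed to 43.4 to 152 CPM against 194 to 234 CPM, and 1 of 5, Sox9, fell. Sox9 made up most of the wild-type sum, with 36.6 ± 40.4 against 152 ± 9.03 CPM. Krt19, Krt7, Epcam and Spp1 overlapped between genotypes and did not pass. T and NK cell and endothelial sums overlapped, at 7.52 to 12.6 against 8.97 to 15.4 CPM and 33.7 to 55.3 against 27.6 to 62.6 CPM, with 1 of 4 and 1 of 6 tested genes falling. Their part in the differences of the droplet genes was not tested.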

How the data were processed

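Liver polyA RNA of ConA-treated mice was sequenced in 8 libraries, 4 per genotype, and the number of mice is not stated. Per the submitters' processing notes, cutadapt and HISAT2 2.0.5 were used. Neither the counting tool, nor its strand setting, nor the build is given in the sources used here. The deposited table holds read counts and FPKM per gene, and the FPKM recomputed from the deposited counts, lengths and totals differed by at most 6.96e-05%. Coordinates are printed as the table lists them, and promoter windows come from RefSeq on GRCm38.p6, so the coordinates of the table and of the windows are not of one build.

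Counts were scaled by TMM, filtered with filterByExpr and tested with edgeR 4.0.16 (glmQLFit, glmQLFTest; R 4.3.3) with Benjamini-Hochberg adjustment over 11380 genes at 0.05. The fit was tested on simulated data. CPM use TMM-scaled totals, levels between genes use FPKM, and log2 CPM for deviations use a prior count of 2. Of the symbols, 20 are shared by several identifiers, none of which is named here. Alternatives were scaling by library size or RLE, DESeq2 1.42.0, limma 3.58.1 on log2(FPKM + 1) or log2(FPKM + 0.1) with an FPKM of 0.5 in 4 libraries, no filter, 1 CPM in 4 libraries, a robust fit, a replicate block and leaving out each library. Leaving out both libraries with over 10% mitochondrial reads was added after the data were seen.

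The 10 genes and the lists were chosen with earlier results of these data known. Named genes are P2rx4, all 10 members, up to 4 tested genes per list with the smallest unadjusted p, Ppara, Dgat2 and Plin3, and the 5 genes most alike to G0s2 and Plin2. The others, such as Tmem159, Bscl2, Agpat2, Soat2, Aadac, Ces1f, Pnpla6, Mgll, Hilpda, Prkaa1, Prkaa2, Irs2, Slc27a2 and Cebpb, were named after their values were seen. Some genes counted in the lists are not reported here by name.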

Additional observations from a re-analysis of the deposited data

Results flagged for a closer look

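In all, 104 groups of 4 libraries were examined, each 1 gene in 1 genotype. In 6 of them the gap of 1 library to its nearest, as a share of the whole range, was above Dixon's 95% critical value. Chance alone gives about 1 in 20 such groups only where genes are chosen without regard to their values. Some of these genes, Cebpb and Tmem159 among them, were named after their values were seen, so this share is no reference here. G0s2 in deficient library 1 reached 128 CPM against 10.2 to 24.1 in the other 3 (gap ratio 0.8824). Gcgr in the same library was at 30.2 CPM against 58.5 to 59.4 (0.9712). Cebpb, the gene of a C/EBP transcription factor, stood at 609 CPM in wild-type library 1 against 6.05 to 10.3 in the other wild-type libraries (0.9929). Acaa1b in wild-type library 3 was at 459 CPM against 240 to 275 (0.8381), Ppargc1a in wild-type library 1 at 7.72 against 5.26 to 5.67 (0.8312), and Tmem159 in wild-type library 2 at 1.76 against 1.09 to 1.202 (0.8313). Deficient library 1 and wild-type library 1 are also those with over 10% mitochondrial reads, and the part of that share in these values was not tested.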

How the results depend on the processing

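Over the alternatives, 57 of the recomputed values moved by more than their spread or, for counts, by more than 1.5 times. Outside the 10 genes, 23 values of single genes gained and 82 lost a call. Among the 10, Plin2 lost its call in 8 alternatives, and Plin5 and Lipe gained one without deficient 2. No called difference changed sign. The count of genes called across the table was 2264, from 982 to 2388 when 1 library was left out (982 when wild-type 3 was the one, 1224 for deficient 3 and 1482 for deficient 1) and 1449 without both libraries with over 10% mitochondrial reads. The count of the 10 genes called higher was 3, from 2 to 5 when 1 library was left out, and 0 were called lower in all of these fits. With 1 library left out, the further droplet proteins had 0 to 4 rises and 1 to 4 falls, triglyceride synthesis 0 to 1 and 4 to 5, hydrolases 0 to 1 and 2 to 8, lipolysis control 1 to 2 and 3 to 5, transcription factors 0 to 2 and 2, and PPAR alpha targets 0 and 6 to 9. Rises of further droplet proteins numbered 1 with no filter, with the replicate block and without both mitochondrial-rich libraries, and those of triglyceride synthesis 0 without these libraries. Falls of hydrolases numbered 10 with DESeq2. Falls of lipolysis control genes numbered 3 with library size scaling, both limma fits, no filter, the replicate block and without the mitochondrial-rich libraries. Rises of transcription factors numbered 2 with library size scaling, 1 with DESeq2, 3 with each limma fit, 1 with the replicate block and 1 without the mitochondrial-rich libraries. Library size scaling placed the medians of the further droplet proteins, triglyceride synthesis and transcription factor lists at 0.08, 0.13 and 0.11, and with DESeq2, which tests more genes, the first was -0.24 and the second 0.17. The cause was not tested.

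Libraries of the same number did not deviate together (r = 0.132, -0.114, 0.0737 and -0.105 for numbers 1 to 4). The labels name no pairing, and low r values cannot decide whether there was one. Both libraries numbered 1 had over 10% mitochondrial reads. With the replicate block, 2 of the 10 genes were called, since Plin2 had an adjusted p of 0.0684, and G0s2 had a log2 fold change of 3.37. Calls that rest on few reads are limited by depth, as for Cidea with 8 to 37 reads.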

Other observations

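Cebpb is among the 18 transcription factors read beside the droplet genes, and its wild-type library 1 departed from the other wild-type libraries. It had 372, 523, 329 and 508 CPM in deficient libraries and 609, 6.05, 9.17 and 10.3 CPM in wild-type libraries. With all 8 libraries its log2 fold change was 1.45 and its adjusted p in the edgeR fit 0.406. Without wild-type library 1 the log2 fold change was 5.65 with an adjusted p of 1.1e-05, and limma on log2(FPKM + 1) gave 4.08 with an adjusted p of 0.0277. Among the 10 droplet genes, wild-type library 1 was the lowest wild-type library for Plin2 at 367 CPM, Cidec at 20.6 CPM and Abhd5 at 14.2 CPM and the highest for Cideb at 9.68 CPM, and it lay within the range of the other 3 for the remaining 6.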
